A study of Mus musculus with 12 samples.

Results

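The 10 genes described here encode receptors and coactivators by which the liver senses fatty acids, sterols and foreign compounds. They are Ppara, Ppard, Pparg, Rxra, Nr1h3, Nr1i2, Nr1i3, Hnf4a and Esrra, which encode nuclear receptors, and Ppargc1a, which encodes the coactivator PGC-1α. They were taken by name from a table of reads counted on 56748 genes, where each name occurs once. The rule itself uses no measured value, but the genes were chosen with earlier results of these data known. RNA-seq was done on 12 livers of mice that had been fasted for 24 h, 4 from each of 3 genotypes. The controls, called WT, carried floxed alleles of Cpt1a, Cpt1b and Cpt2 according to their labels. The labels of the KO livers name no Cpt1a or Cpt1b allele, so that floxed background and genotype cannot be told apart in any comparison with WT. The single KO (SKO) livers are labelled as a liver-specific KO of Cpt2, the inner-membrane enzyme that releases long-chain acyl-CoA inside mitochondria for oxidation. The double KO (DKO) livers are labelled as a KO of Atf3, a stress-induced transcription factor, in addition to Cpt2. The KOs were made by crossing floxed C57BL6 lines to Albumin-Cre mice, in which the albumin promoter drives Cre, and deletion was not measured here by cell type. The Atf3 floxed allele came from a C57BL/6N resource. The labels give no age, sex, batch or collection date of any liver, and nothing but the numbered titles says that the livers came from separate mice, so that p-values measure the spread between these livers.

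Nuclear receptors are transcription factors that are switched by small lipophilic ligands. PPARα, PPARδ and PPARγ bind fatty acids and their derivatives, LXRα (Nr1h3) binds oxysterols, and PXR (Nr1i2) and CAR (Nr1i3) respond to drugs and bile acids. All of these bind DNA as heterodimers with a retinoid X receptor, of which RXRα (Rxra) is the main form in liver. HNF4α binds DNA as a homodimer and maintains hepatocyte identity, and ERRα (Esrra), which the study calls an orphan receptor, governs mitochondrial genes. PGC-1α is recruited by several of these receptors and is raised in the fasted liver to support gluconeogenesis and oxidation. PPARα is the form best known for the response of hepatocytes to fasting, while PPARγ is best known from adipocytes and rises in fatty liver. ERRα is also a documented regulator of ApoA4, the apolipoprotein on which the study centred.

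Sequencing gave 14710304 to 20030055 reads counted on genes per liver, and counts were expressed as CPM, a level relative to the library size after scaling with TMM factors. Cpt2 was at 199 to 252 CPM in WT, 108 to 157 CPM in SKO livers and 101 to 127 CPM in DKO livers. Atf3 was at 17 to 39 reads in WT livers, 259 to 1056 in SKO livers, 164 to 265 in DKO 1 to 3 and 5 in DKO 4, so that DKO 1 to 3 were above each WT liver. A count over a whole gene includes reads outside a deleted part and reads from other cells, so these counts do not check either deletion. The study describes the mice of this experiment as male, but SKO 3 and DKO 4 had 18063 and 20855 reads on Xist, the RNA of the inactive X chromosome, and 2 and 0 reads on 4 Y-linked genes. The other livers had at most 19 reads on Xist and at least 2741 on those Y-linked genes. DKO 4 also stood apart from the other DKO livers over all genes, so the comparisons of the 10 genes between genotypes and the counts over gene lists are given below with and without SKO 3 and DKO 4. Levels per liver and the order of levels are given with all 12 livers. The hepatocyte markers Alb, Ttr and Apob were abundant in each genotype, and the summed level of 8 such markers was 80626 to 101243 CPM in WT, 42562 to 67502 in SKO livers and 39389 to 102937 in DKO livers. Of the 8, 6 fell in SKO livers, beside 32.1% of all genes that passed in either direction (15.4% lower). Without SKO 3 it was also 6, beside 32.5%. In DKO livers 1 of the 8 fell, beside 10.5% of all genes, and without DKO 4 it was 7, beside 35.9%. The part of these falls in the results on receptors was not tested.

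**Figure D1:**
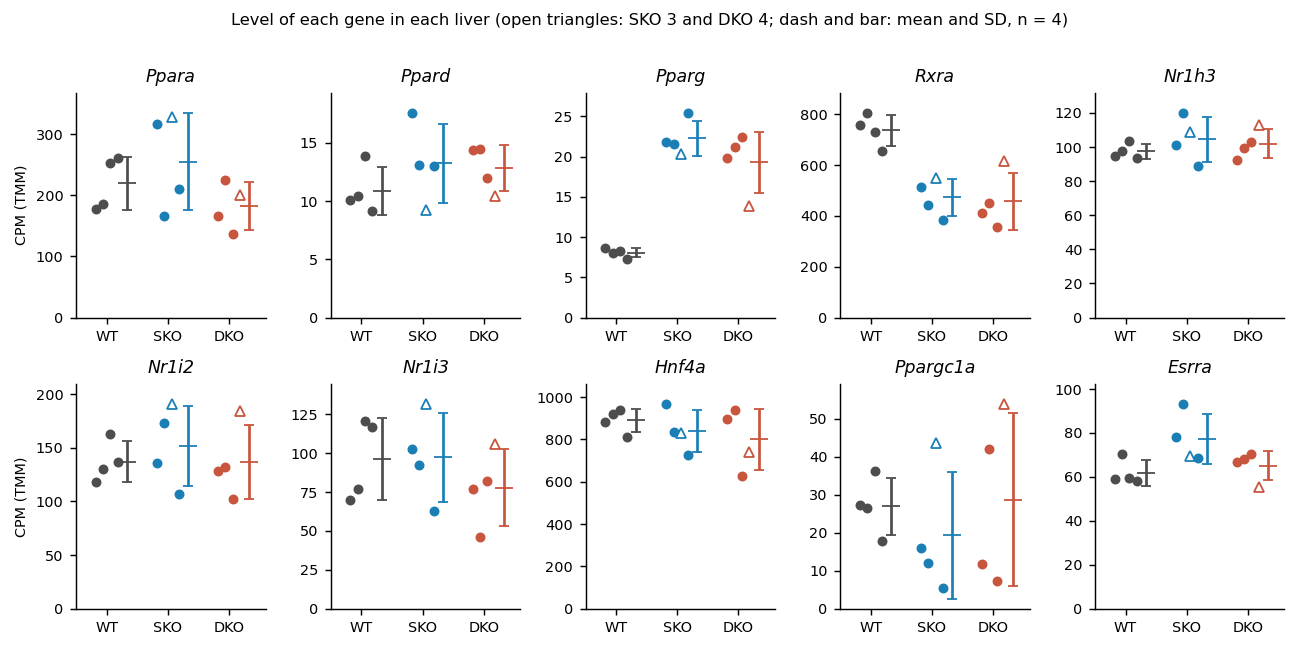
Level of each of the 10 genes in CPM in each liver of WT, SKO and DKO mice, with the mean and SD of each genotype (n = 4) beside the points and open triangles for SKO 3 and DKO 4. The WT livers lie below all SKO and DKO livers for Pparg and above all of them for Rxra, and Ppargc1a spreads from 5.47 to 43.5 CPM in SKO and from 7.31 to 53.7 CPM in DKO livers.

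Per length of transcript, the 10 genes spanned from Hnf4a, at 192 ± 12.3 FPKM (SD, n = 4) in WT livers, to Ppard, at 1.51 ± 0.288 FPKM. The deposited FPKM values, which divide reads by gene length and library size, were used for this order because CPM does not compare genes of different length. In WT livers Hnf4a was followed by Rxra at 122 ± 10.2, Ppara at 59.7 ± 12.0, Nr1i2 at 55.9 ± 7.91 and Nr1h3 at 40.4 ± 1.88 FPKM. Below them were Nr1i3 at 22.7 ± 6.27, Esrra at 14.6 ± 1.35, Ppargc1a at 4.27 ± 1.20, Pparg at 2.85 ± 0.204 and Ppard. Of neighbours in this order, the WT ranges of Ppara and Nr1i2, of Nr1i3 and Esrra, and of Ppargc1a and Pparg overlapped, and Ppara was above Nr1i2 in 3 of 4 livers. In SKO livers Pparg was above Ppargc1a in 4 of 4 livers, at 7.85 ± 0.720 against 3.04 ± 2.64 FPKM. In DKO livers Pparg was above Ppargc1a in 3 of 4 livers, and DKO 4 was the exception. Rxra, which was above Ppara in each WT liver, was above it in 3 of 4 SKO livers, where their FPKM ranges overlapped.

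The first comparison asks how these genes differ between livers labelled as a Cpt2 KO and WT livers. In fasted SKO livers Pparg rose 2.78-fold and Rxra fell to 0.649 of its WT level, while the other 8 genes did not pass the test. That is 1 gene higher and 1 lower of 10 tested, beside 32.1% of 14261 genes that passed in either direction, 16.7% higher and 15.4% lower. Whether the 2 of 10 differ from this background was not tested. The median log2 fold change of the 10 genes was 0.14, beside 0.03 over all genes tested. In a liver extract, fewer cells of a type and less RNA per cell cannot be told apart, and this holds for each value here. Without SKO 3, 2 genes were higher and 2 lower, since Esrra and Ppargc1a then passed, beside 32.5% of all genes.

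The second comparison asks whether the same holds in livers labelled as a KO of Atf3 as well. In DKO livers Pparg rose 2.41-fold and Rxra fell to 0.627 of WT, again 1 gene higher and 1 lower of 10. The background was 10.5% of 14448 genes in either direction, 6.06% higher and 4.39% lower. The median log2 fold change of the 10 genes was 0.04, beside 0.03 over all genes. Without DKO 4 the same 1 gene was higher and the same 1 lower, beside 35.9% of all genes. Both comparisons use the 4 WT livers as controls, so that one is not support for the other.

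The third comparison, of DKO with SKO livers, addresses the added KO of Atf3 that the labels name. None of the 10 genes passed the edgeR test, and none had an unadjusted p under 0.05, while DESeq2 also called 0 of them. The background was low, at 0.0209% of 14363 genes, and 932 genes had an unadjusted p under 0.05. Without SKO 3 and DKO 4 the count of receptor genes was still 0, beside 0.146% of all genes. The interval of the log2 difference was narrowest for Nr1h3, at -0.37 to 0.30, and widest for Ppargc1a, at -0.98 to 2.13. For Pparg it was -0.57 to 0.16 and for Rxra -0.52 to 0.44. Without SKO 3 and DKO 4 the log2 difference was -0.12 for Pparg, -0.15 for Rxra and 0.83 for Ppargc1a.

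**Figure D2:**
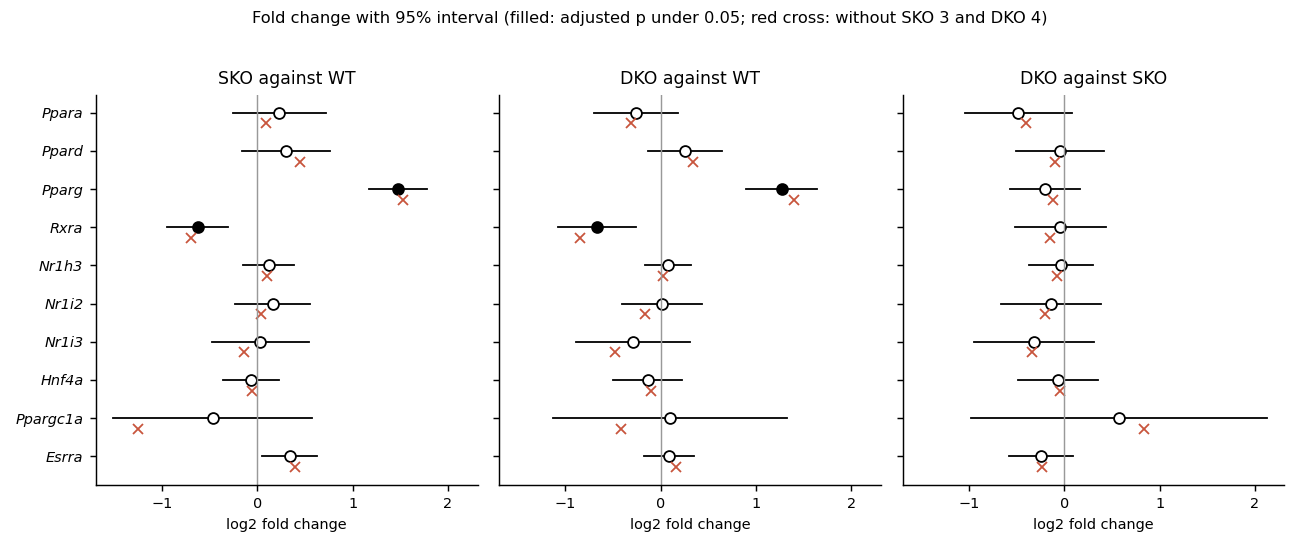
Log2 fold change of the 10 genes in SKO against WT, DKO against WT and DKO against SKO livers with the 95% interval of the edgeR fit (lines), filled where the adjusted p was under 0.05, and red crosses for the value without SKO 3 and DKO 4. Pparg lies at 1.48 and 1.27 and Rxra at -0.62 and -0.67 against WT, and none of the 10 genes is filled in DKO against SKO.

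Pparg, the receptor that drives lipid storage genes, is gene ENSMUSG00000000440 on chromosome 6 and had the smallest p-value of the 10 genes in both comparisons with WT. It was counted 167, 127, 126 and 132 times in WT 1 to 4, 340, 426, 393 and 455 times in SKO 1 to 4 and 411, 349, 435 and 256 times in DKO 1 to 4. In CPM these were 8.69, 8.08, 8.22 and 7.30 in WT, 21.8, 21.6, 20.3 and 25.4 in SKO livers and 19.9, 21.2, 22.4 and 13.8 in DKO livers. The lowest KO liver, DKO 4, was above the highest WT liver, and the SKO livers overlapped with the DKO livers. The mean was 8.07 ± 0.576 CPM in WT, 22.3 ± 2.18 in SKO livers and 19.3 ± 3.80 in DKO livers (SD, n = 4 each). The rise in SKO livers (log2 fold change 1.48 ± 0.14 (SE), adjusted p = 1.95e-05) ranked 180 among 14261 genes by p-value, and without SKO 3 it was log2 fold change 1.52 ± 0.15 (SE), adjusted p = 2.85e-05. In DKO livers it was log2 fold change 1.27 ± 0.17 (SE), adjusted p = 0.00636, and without DKO 4 it was log2 fold change 1.40 ± 0.13 (SE), adjusted p = 1.51e-05. Each of 14 distinct alternative settings called Pparg in both comparisons, with adjusted p of at most 0.000165 in SKO and at most 0.032 in DKO livers.

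Because PPARγ is a hallmark of adipocytes and is also found in macrophages, markers of both were read beside it. None of 6 adipocyte markers (Adipoq, Plin1, Cfd, Retn, Lep and Slc36a2) had enough counts to be tested, their summed level was at most 0.670 CPM in any liver, and Lep had no count in any of the 12. Of 11 macrophage markers tested in SKO against WT, 2 rose and none fell, which is 18.2% called beside 32.1% of all genes. Without SKO 3, 2 rose and 1 fell, beside 32.5% of all genes. With all livers the 2 that rose were Gpnmb (0 to 0.509 CPM in WT and 26.3 to 54.1 CPM in SKO livers) and Cd68 (log2 fold change 2.28 ± 0.28, adjusted p = 0.000107). Gpnmb encodes a lysosomal membrane glycoprotein and Cd68 a lysosomal membrane protein. The Kupffer cell markers Clec4f and Vsig4 did not pass (adjusted p = 0.678 and 0.96). In DKO livers Gpnmb rose and Marco fell, which is 18.2% called beside 10.5% of all genes. Without DKO 4, 2 of the macrophage markers rose and 6 fell, beside 35.9% of all genes. The summed level of the 12 macrophage markers was 199 to 401 CPM in WT, 221 to 491 in SKO livers and 131 to 399 in DKO livers, and the part of macrophages in the rise of Pparg was not tested. Of the markers of other liver cells tested in SKO against WT, 1 of 9 for stellate cells rose (Dcn) and 2 of 4 for cholangiocytes fell (Sox9 and Spp1). None of 8 for endothelial cells or of 3 for lymphocytes passed, beside 32.1% of all genes. These counts were the same without SKO 3, beside 32.5%. In DKO livers 1 of 5 for cholangiocytes fell (Sox9) and none for stellate cells, endothelial cells or lymphocytes passed, beside 10.5%. Without DKO 4, 1 for stellate cells rose and 2 for cholangiocytes fell, beside 35.9%.

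RefSeq lists 3 starts for Pparg on the plus strand of chromosome 6 in GRCm38.p6, and a count over the gene does not tell which of them was used. The 250 bases before each start are shown because Pparg was the gene of the 10 with the largest fold change in both comparisons with WT, with the receptor hexamer AGGTCA in capitals wherever it occurs. That hexamer is the unit that PPAR, RXR, LXR and HNF4α dimers recognise in pairs. Start 1, chr6:115360894-115361143, held 1 hexamer that begins 28 bases before the start. Start 2, chr6:115362099-115362348, held 1 that begins 9 bases before it, and start 3, chr6:115421816-115422065, held none.
Pparg start 1: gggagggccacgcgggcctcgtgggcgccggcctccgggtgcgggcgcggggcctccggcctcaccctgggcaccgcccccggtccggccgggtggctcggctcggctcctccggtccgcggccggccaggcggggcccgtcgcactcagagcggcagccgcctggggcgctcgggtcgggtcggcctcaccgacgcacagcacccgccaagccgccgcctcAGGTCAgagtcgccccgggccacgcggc
Pparg start 2: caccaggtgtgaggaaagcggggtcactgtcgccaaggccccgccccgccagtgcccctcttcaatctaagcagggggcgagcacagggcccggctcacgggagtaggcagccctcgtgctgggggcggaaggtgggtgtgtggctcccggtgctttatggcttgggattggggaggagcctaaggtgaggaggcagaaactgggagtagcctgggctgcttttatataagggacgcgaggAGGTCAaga
Pparg start 3: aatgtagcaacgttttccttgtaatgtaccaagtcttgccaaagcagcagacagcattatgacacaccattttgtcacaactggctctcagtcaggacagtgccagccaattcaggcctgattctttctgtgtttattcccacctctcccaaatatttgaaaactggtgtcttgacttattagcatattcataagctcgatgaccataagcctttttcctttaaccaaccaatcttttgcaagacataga
The G and C content of these stretches was 82.4%, 63.6% and 40.8%.

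Rxra, the common dimer partner, is gene ENSMUSG00000015846 on chromosome 2 and was the one receptor of the 10 that fell. It was counted 14561, 12654, 11187 and 11846 times in WT, 8042, 8772, 10608 and 6881 times in SKO livers and 8514, 7438, 6914 and 11401 times in DKO 1 to 4. In CPM it was at 758, 805, 729.7 and 655 in WT, 515, 444, 549 and 384 in SKO livers and 411, 451, 356 and 616 in DKO livers. Each WT liver lay above each KO liver, and DKO 4 was the KO liver closest to WT. The mean was 737 ± 62.7 CPM in WT, 473 ± 73.8 in SKO livers and 459 ± 112 in DKO livers (SD, n = 4 each). The fall in SKO livers (log2 fold change -0.62 ± 0.15 (SE), adjusted p = 0.00677) was called in 14 of 14 distinct alternative settings, and without SKO 3 it was log2 fold change -0.70 ± 0.15 (SE), adjusted p = 0.00491. The fall in DKO livers (log2 fold change -0.67 ± 0.18 (SE), adjusted p = 0.0467) was called in 5 of 14, with adjusted p from 0.000362 to 0.125. Without DKO 4 it was larger (log2 fold change -0.85 ± 0.12 (SE), adjusted p = 0.000362), and with any other single WT or DKO liver left out it no longer passed, at adjusted p of 0.0889 to 0.125. With the total counts as the only scaling the adjusted p was 0.0514, and with the replicate block it was 0.0897.

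Both other RXR genes were also in the table. Rxrb, which encodes RXRβ, rose in SKO livers (log2 fold change 0.95 ± 0.19, adjusted p = 0.00314) from 41.0 ± 3.90 to 78.3 ± 24.7 CPM, and in DKO livers (log2 fold change 0.81 ± 0.17, adjusted p = 0.0226) to 71.5 ± 15.9 CPM. Without SKO 3 and DKO 4 its log2 fold changes were 1.08 and 0.96 (adjusted p = 0.000799 and 3.44e-05). Rxrg, which encodes RXRγ, did not pass in either comparison (adjusted p = 0.624 and 0.147). RefSeq lists 2 starts for Rxra on the plus strand in GRCm38.p6. The 250 bases before each are shown for the dimer partner of the PPARs, with the hexamer AGGTCA or its reverse complement TGACCT in capitals. Start 1, chr2:27676951-27677200, held no hexamer, while start 2, chr2:27709042-27709291, held 1 on the sense strand that begins 48 bases before the start and 1 on the antisense strand that begins 87 bases before it.
Rxra start 1: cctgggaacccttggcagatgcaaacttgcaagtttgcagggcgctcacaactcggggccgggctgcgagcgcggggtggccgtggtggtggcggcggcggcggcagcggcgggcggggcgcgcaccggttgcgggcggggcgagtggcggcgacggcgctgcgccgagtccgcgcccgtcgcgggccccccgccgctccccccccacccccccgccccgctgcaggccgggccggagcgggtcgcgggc
Rxra start 2: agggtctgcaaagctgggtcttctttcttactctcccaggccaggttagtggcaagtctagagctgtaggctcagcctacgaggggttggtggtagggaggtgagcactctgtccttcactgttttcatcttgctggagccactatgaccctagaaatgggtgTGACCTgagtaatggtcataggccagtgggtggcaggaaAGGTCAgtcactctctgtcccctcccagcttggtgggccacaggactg
The sense hexamer of start 2 is preceded by an A, which makes it the extended form AAGGTCA that ERRα binds.

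The promoter table held 15 starts for the 10 genes, each with 250 bases before and 50 bases after the start. The hexamer AGGTCA, searched on both strands without mismatch, occurred in 3 of these 15 windows, beside 16.3% of 32851 windows over all genes. The extended form AAGGTCA, each match of which also holds a hexamer, occurred in 1 of 15 beside 4.72% of all windows. Paired hexamers with 1 base (DR1) or 4 bases (DR4) between them occurred in none of the 15 and in 0.0396% and 0.0152% of all windows. The cAMP response element TGACGTCA, a sequence that CREB and ATF factors bind, occurred in none of the 15 and in 1.79% of all. The shorter form TGACG, which lies within it, occurred in 3 of 15, at the starts of Ppara, Ppard and Ppargc1a, beside 20.8% of all windows. A match is a description of letters, and the table holds a single start of Ppargc1a.

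Ppara, the main PPAR of hepatocytes, did not pass in any comparison. It was at 178, 187, 253 and 261 CPM in WT, 316, 166, 328 and 209.7 in SKO livers and 166, 226, 136 and 201 in DKO livers, and the 3 genotypes overlapped. In SKO against WT it had log2 fold change 0.23 ± 0.22 (SE), adjusted p = 0.476, and in DKO against WT log2 fold change -0.26 ± 0.19 (SE), adjusted p = 0.406. Its log2 difference between DKO and SKO livers was -0.48 with a 95% interval of -1.04 to 0.08, at adjusted p = 0.792. Without SKO 3 and DKO 4 that difference was -0.40, at adjusted p = 0.864. Ppard, a widely expressed PPAR, was at 9.13 to 13.8 CPM in WT, 9.27 to 17.5 in SKO livers and 10.5 to 14.5 in DKO livers and did not pass either, with log2 fold changes of 0.30 and 0.25 against WT. Without SKO 3 and DKO 4 the log2 fold changes against WT were 0.09 and -0.31 for Ppara and 0.44 and 0.34 for Ppard, and neither gene passed.

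With the 3 PPAR genes on the FPKM scale, the share of Pparg in their sum was 5.81%, 5.18%, 3.94% and 3.44% in WT 1 to 4. It was 8.00%, 13.9%, 7.36% and 13.2% in SKO 1 to 4, and 13.0%, 10.6%, 17.0% and 8.02% in DKO 1 to 4. Each KO liver was above each WT liver, and the SKO and DKO livers overlapped. Ppara still made up the bulk of the sum, at 93.0% ± 1.47 in WT, 86.9% ± 4.14 in SKO livers and 84.8% ± 4.36 in DKO livers (SD, n = 4). These shares follow from the levels above and are a description of the makeup of the message pool, with no test of their own.

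**Figure D3:**
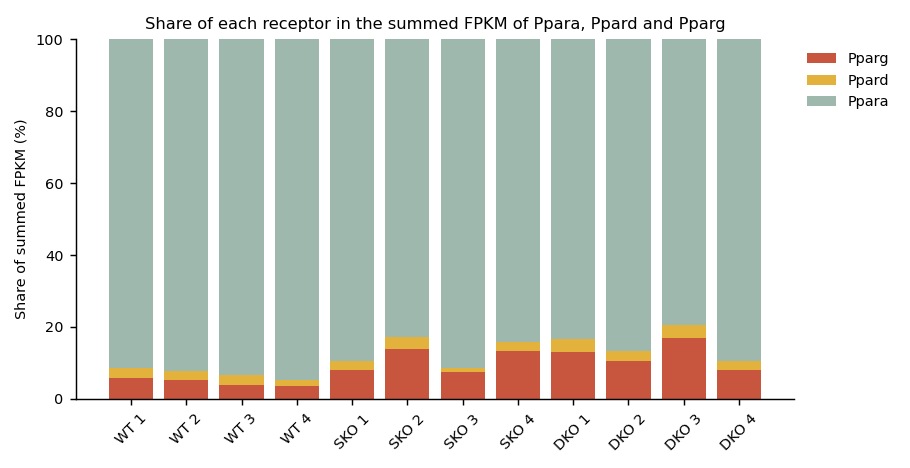
Share of Pparg, Ppard and Ppara in the summed FPKM of the 3 genes, as stacked bars that add up to 100% in each of the 12 livers. Pparg takes 3.44 to 5.81% of the sum in WT livers and 7.36 to 17.0% in the 8 KO livers.

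Nr1h3, Nr1i2 and Nr1i3, the sterol and xenobiotic receptors, did not pass in any comparison. Nr1h3, which encodes LXRα, was the steadiest of them, at 97.4 ± 4.33 CPM in WT, 105 ± 13.2 in SKO livers and 102 ± 8.53 in DKO livers. Its 95% interval against WT was -0.15 to 0.38 on the log2 scale in SKO livers and -0.16 to 0.32 in DKO livers, and its log2 fold changes without SKO 3 and DKO 4 were 0.10 and 0.02. Nr1i2, which encodes PXR, was at 137 ± 19.0, 151 ± 37.5 and 137 ± 34.4 CPM in the same order. SKO 3 and DKO 4 held the highest Nr1i2 level of their genotypes, at 190.5 and 184 CPM, and without these livers its log2 fold change against WT went from 0.16 to 0.04 in SKO and from 0.01 to -0.17 in DKO livers. Nr1i3, which encodes CAR, was at 70.0 to 121 CPM in WT, 62.7 to 131 in SKO livers and 45.9 to 106 in DKO livers. SKO 3 and DKO 4 were again the highest of their genotypes, and the log2 fold change of Nr1i3 in SKO livers went from 0.03 to -0.14 without SKO 3, and in DKO livers from -0.29 to -0.48 without DKO 4.

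Hnf4a, the most abundant of the 10, was at 883, 921, 942 and 814 CPM in WT, 966, 834, 829.6 and 727 in SKO livers and 897, 941, 628 and 739.6 in DKO livers. The genotypes overlapped, and the lowest liver was DKO 3. In SKO livers it had log2 fold change -0.07 ± 0.13 (SE), adjusted p = 0.739 with a 95% interval of -0.36 to 0.22, and in DKO livers log2 fold change -0.14 ± 0.16 (SE), adjusted p = 0.606. Without SKO 3 and DKO 4 these log2 fold changes were -0.06 and -0.11. With total counts as the only scaling both values turned positive, at 0.11 and 0.03. That scaling moved the median of all genes by 0.17 on the log2 scale in both comparisons. Relative to that median Hnf4a was at -0.10 in SKO livers under either scaling. It also changed the balance of calls over all genes in SKO livers, from 2378 higher and 2198 lower to 3759 higher and 1562 lower. In DKO livers the calls went from 876 higher and 634 lower to 1788 and 469.

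Ppargc1a (ENSMUSG00000029167 on chromosome 5), the fasting-induced coactivator, was the most variable of the 10 genes. It was counted 523, 416, 557 and 324 times in WT, 251, 237, 841 and 98 times in SKO livers and 242, 690, 142 and 995 times in DKO 1 to 4. In CPM it was at 27.2, 26.5, 36.3 and 17.9 in WT, 16.1, 12.0, 43.5 and 5.47 in SKO livers and 11.7, 41.9, 7.31 and 53.7 in DKO livers. SKO 3 and DKO 4, the livers with Xist counts, were the highest of their genotypes and the highest of all 12, and DKO 2 was also above each WT liver. The remaining 5 KO livers were each below the lowest WT liver. The coefficient of variation was 27.9% in WT, 87.0% in SKO livers and 79.3% in DKO livers. Over 4 livers the difference between SKO and WT did not pass (log2 fold change -0.47 ± 0.48 (SE), adjusted p = 0.496, 95% interval -1.51 to 0.57). Without SKO 3 Ppargc1a passed as lower in SKO livers (log2 fold change -1.25 ± 0.33 (SE), adjusted p = 0.0132), and with the replicate block it had log2 fold change -0.80 ± 0.27 (SE), adjusted p = 0.0494. In DKO livers it had log2 fold change 0.09 ± 0.55 (SE), adjusted p = 0.927, and without DKO 4 log2 fold change -0.42 ± 0.47 (SE), adjusted p = 0.534. Sex cannot be told apart here from other properties of these 2 livers.

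Esrra (ENSMUSG00000024955 on chromosome 19), which encodes ERRα, was counted 1134, 1108, 911 and 1051 times in WT, 1221, 1838, 1342 and 1230 times in SKO livers and 1382, 1122, 1368 and 1026 times in DKO 1 to 4. In CPM it was at 59.0, 70.5, 59.4 and 58.1 in WT, 78.2, 93.0, 69.5 and 68.6 in SKO livers and 66.8, 68.1, 70.4 and 55.4 in DKO livers. In WT livers 3 values lay within 58.1 to 59.4 CPM and WT 2 was higher, within the range of the SKO livers. The difference between SKO and WT (log2 fold change 0.34 ± 0.13 (SE), adjusted p = 0.069) missed the threshold, although its own 95% interval was 0.05 to 0.63. It passed without SKO 3 (log2 fold change 0.39 ± 0.14 (SE), adjusted p = 0.0472). With total counts as the only scaling its adjusted p was 0.00765, but that scaling moved the median of all genes by 0.17, and relative to that median Esrra stayed at 0.31 under either scaling. Its adjusted p over 14 settings was 0.00765 to 0.192. In DKO livers it had log2 fold change 0.09 ± 0.12 (SE), adjusted p = 0.653, and without DKO 4 log2 fold change 0.16 ± 0.10 (SE), adjusted p = 0.247. DKO 4 held the lowest Esrra level of all 12 livers.

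**Figure D4:**
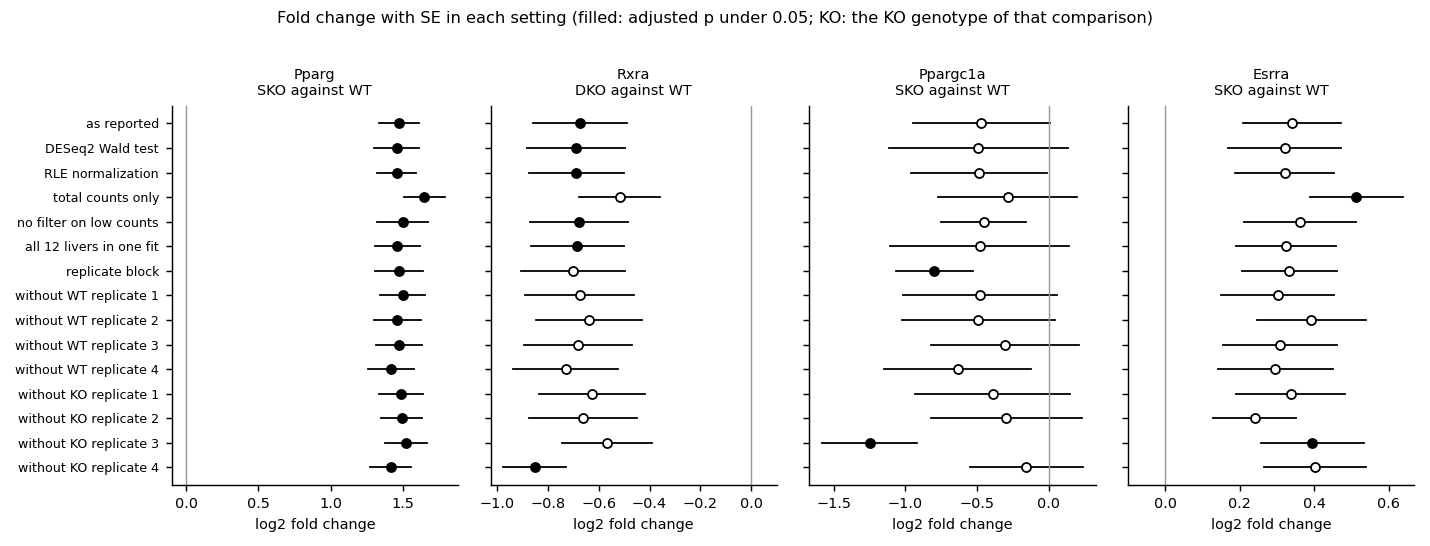
Log2 fold change with its SE (lines) of Pparg, Ppargc1a and Esrra in SKO against WT and of Rxra in DKO against WT, in the fit as reported and in 14 alternative settings, filled where the adjusted p was under 0.05. Pparg is filled in each setting, Rxra in DKO livers is filled in the fit as reported and in 5 of 14 alternatives, and Ppargc1a and Esrra are filled in 2 of 14 alternatives each.

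By pattern over the 12 livers, the gene most like Pparg among 9790 others with a mean of at least 5 CPM was Cgref1 (Pearson r of log2 CPM 0.988), then Cdk4 (r 0.979), a kinase of the cell cycle, and Cln6 (r 0.978), a membrane protein of the endoplasmic reticulum. With the mean of each genotype taken away, these r were 0.908, 0.834 and 0.924. The genes most like Rxra were Zdhhc9 (r 0.978), a palmitoyltransferase, Klf13 (r 0.975), a zinc finger transcription factor, and Calr (r 0.971), a calcium-binding chaperone, with r of 0.941, 0.945 and 0.912 within genotypes. These are descriptions over livers that share genotype and depth and carry no test.

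Genes known to respond to the receptors were read from lists written with earlier results of these data known and sharing a few genes (Cd36, Acsl1, Pdk4, Acadm, Pck1, Lpl, Tfam and Perm1 stand on more than 1). Of each list up to 4 genes with the smallest p-values in SKO livers are described, and any other gene named was chosen after its values were seen. The counts of each list stand beside 32.1% of all genes called in SKO against WT (32.5% without SKO 3) and 10.5% in DKO against WT, which became 35.9% without DKO 4, so that list counts without DKO 4 rose along with those of all genes. Of 30 genes known to be induced by PPARα, 22 rose, none fell and 8 did not pass in SKO against WT, with a median log2 fold change of 0.87 beside 0.03 over all genes, and 20 rose without SKO 3. Pdk4, which restrains pyruvate oxidation, went from 5.72 to 12.6 CPM in WT to 514 to 925 CPM in SKO livers (93.0-fold, adjusted p = 2.88e-07). The thioesterases Acot1 and Acot2, which cleave acyl-CoA, rose 10.5-fold and 29.7-fold, and Plin2, a coat protein of lipid droplets, rose 8.87-fold. In DKO against WT 10 of the 30 rose and none fell, with a median of 0.55, and without DKO 4, 19 rose and 1 fell. Pdk4 was at 843, 1003 and 756 CPM in DKO 1 to 3 and at 70.8 CPM in DKO 4. The level of Ppara itself did not pass in either comparison.

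Of 12 tested genes of the PPARγ list, 7 rose and 3 fell in SKO livers, with a median log2 fold change of 1.47, and 3 of the 15 listed genes had too few counts. The counts were the same without SKO 3. The 3 that fell were Pck1, Gpd1 and Agpat2, enzymes of glycerol phosphate and phosphatidate synthesis. Cidec, which enlarges lipid droplets, rose from 18.8 to 28.1 CPM to 323 to 521 CPM (log2 fold change 4.34 ± 0.20, adjusted p = 2.88e-07). Plin4, another droplet protein, rose 16.0-fold, or 10.7-fold without SKO 3, which had 1140 CPM beside 311 to 491 CPM in the other SKO livers. Fabp4, a fatty acid carrier of adipocytes and macrophages, rose 7.22-fold, and Cd36, a fatty acid transporter, rose 7.39-fold. In DKO livers 6 of the 12 rose and 2 fell (Gpd1 and Agpat2), with a median of 0.93, and without DKO 4, 6 rose and 4 fell. Cidec was at 442, 425 and 335 CPM in DKO 1 to 3 and at 32.7 CPM in DKO 4, beside 18.8 to 28.1 CPM in WT livers, while Pparg was at 13.8 CPM in that liver.

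In the LXR, the PXR and CAR and the HNF4α lists more genes fell than rose in SKO livers. Of 16 genes of the LXR list 2 rose and 8 fell (median -0.57), the same numbers as without SKO 3. Srebf1, the regulator of fatty acid synthesis, fell to 0.430 of WT, Fasn, the fatty acid synthase, to 0.385 and Abcg5, a sterol exporter, to 0.465, while Lpcat3, which remodels phospholipids, rose 1.59-fold and Pltp, the phospholipid transfer protein, 1.61-fold. Of 22 genes tested of the PXR and CAR list 3 rose (Ugt1a1, Gsta1 and Gadd45b) and 11 fell (median -0.65), or 2 and 11 without SKO 3, where Ugt1a1 no longer passed. The cytochromes Cyp2c54, Cyp2c50 and Cyp2c37 were at 7.44 to 29.5, 23.7 to 90.0 and 30.8 to 97.1 CPM in SKO livers against 272 to 428, 518 to 850.0 and 277 to 496 CPM in WT livers. These 3 have near-identical copies in the genome, so their counts may be divided among paralogs. Cyp3a13, of the family best known for PXR, fell to 0.407 of WT (adjusted p = 4.37e-05). In DKO livers Lpcat3 rose and Abca1 fell of the 16 genes of the LXR list, and Gadd45b rose and Cyp3a25 fell of 21 on the PXR and CAR list. Without DKO 4 the LXR list had 1 gene higher and 8 lower, and the PXR and CAR list 4 higher and 10 lower.

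Of 21 tested genes of the HNF4α list 1 rose (Mttp, which loads lipid onto apolipoprotein B) and 11 fell in SKO livers (median -0.58), while Hnf4a itself had a log2 fold change of -0.07. F7, a coagulation factor, fell to 0.286 of WT, Otc, an enzyme of the urea cycle, to 0.189, Cyp7a1, the rate-limiting enzyme of bile acid synthesis, to 0.0858 and Serpina1c, a protease inhibitor, to 0.340. Without SKO 3 it was 3 higher and 11 lower. In DKO livers none of the 21 rose and 2 fell, Cyp7a1 (adjusted p = 0.00896) and Serpina1c (adjusted p = 0.0242), which is 9.52% beside 10.5% of all genes, and without DKO 4, 2 rose and 12 fell, beside 35.9%. Cyp7a1 was at 156 to 192 CPM in WT, 5.31 to 22.1 in SKO livers and 1.33 to 19.6 in DKO livers. The PGC-1α and ERRα list went both ways in SKO livers, with 7 genes higher and 5 lower of 21 tested (median 0.12). Besides Pdk4, Cs (citrate synthase), an enzyme of the citric acid cycle, rose 2.11-fold, while Fbp1, an enzyme of gluconeogenesis, fell to 0.313 of WT. Among the 5 that fell were Fbp1, Pck1 and G6pc of gluconeogenesis and Sirt3, a mitochondrial deacetylase, and among the 7 that rose were also Cycs, Idh3a, Slc25a4 and Mfn2. The 9 that did not pass, from Sdhb to Cox5b in order of log2 fold change, lay between -0.24 and 0.26, and all 9 encode mitochondrial proteins, as do Cycs, Idh3a, Slc25a4 and Mfn2. Pck1 had log2 fold change -0.91 ± 0.23 and G6pc log2 fold change -1.50 ± 0.32 (adjusted p = 0.0111 and 0.00414). Without SKO 3, 5 rose and 5 fell, since Slc25a4 and Mfn2 no longer passed. In DKO livers 2 of the 21 rose and none fell, Pdk4 and Cs, and without DKO 4, 4 rose and 4 fell.

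**Figure D5:**
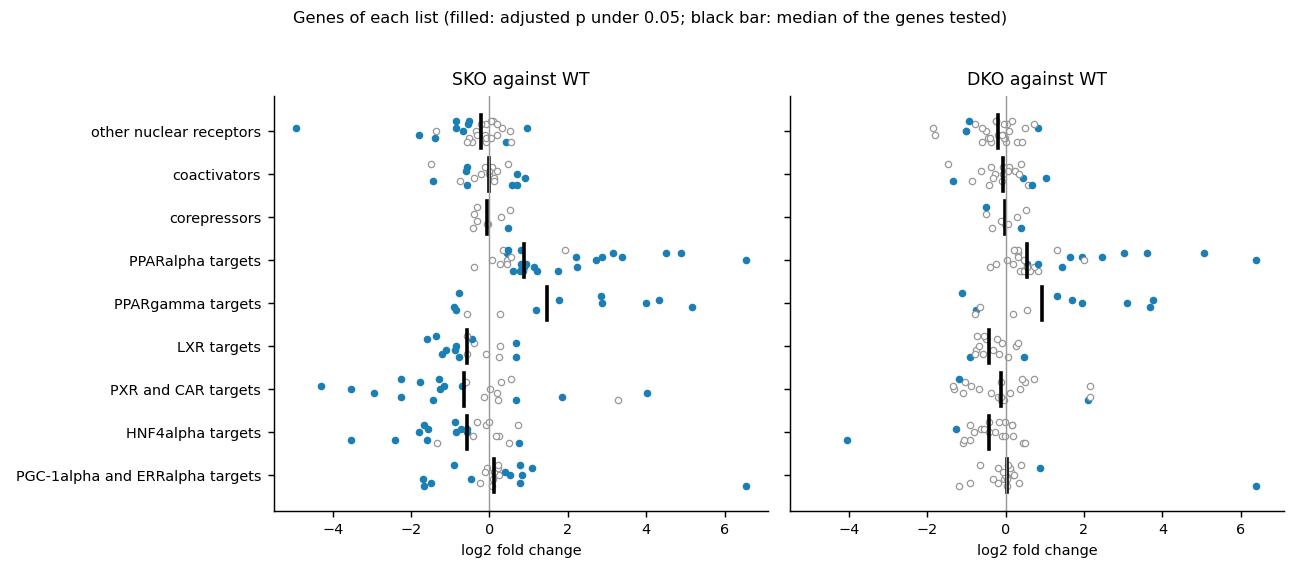
Log2 fold change of the tested genes of 9 lists in SKO against WT (left) and DKO against WT (right), one point a gene, filled where the adjusted p was under 0.05, with a black bar at the median of each list. In SKO livers the median lies at 0.87 for the PPARα list and at -0.57, -0.65 and -0.58 for the LXR, the PXR and CAR and the HNF4α lists.

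Among 29 tested nuclear receptors other than the 10 described here, 2 rose and 8 fell in SKO livers (median -0.21), which is 34.5% called beside 32.1% of all genes, and 9 fell without SKO 3. Nr0b2, the repressor SHP that damps bile acid synthesis, was at 19.6 to 39.5 CPM in WT livers and at 3.78 CPM in SKO 1 and at most 0.405 CPM in the other SKO livers (adjusted p = 0.000331), where the level of 3 counts is 0.154 to 0.204 CPM. Esr1, the estrogen receptor α, fell to 0.384 of WT and Nr5a2, the bile acid regulator LRH-1, to 0.551, while Rxrb and Nr1h2, which encodes LXRβ, rose. In DKO livers 1 of the 29 rose (Rxrb) and 2 fell, Rara among them, which is 10.3% beside 10.5% of all genes, and without DKO 4, 2 rose and 10 fell. Of 20 coactivators tested, 4 rose and 4 fell in SKO livers (5 fell without SKO 3), which is 40.0% beside 32.1% of all genes. Carm1 and Prmt1, arginine methyltransferases, rose 1.63-fold and 1.64-fold, Pprc1, a relative of PGC-1α, rose 1.89-fold, and Cited2, a partner of CBP and p300, fell to 0.369 of WT. Nrf1, a regulator of mitochondrial genes, also rose, and Ncoa4, Med1 and Kat2b also fell. In DKO livers Pprc1, Nrf1 and Crebbp rose and Cited2 fell, and without DKO 4, 6 rose and 6 fell, beside 35.9% of all genes. Of 9 corepressors tested Gps2, a subunit of the NCoR complex, rose in SKO livers (log2 fold change 0.48 ± 0.14, adjusted p = 0.0211) and the other 8 did not pass. These counts were the same without SKO 3. In DKO livers Gps2 rose and Sin3a fell (adjusted p = 0.0476 and 0.043), and without DKO 4, 3 rose and 2 fell.

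In DKO against SKO none of the genes on any of the 9 lists passed the edgeR test, and DESeq2 called 2 of them. Without SKO 3 and DKO 4, 1 gene of the PXR and CAR list passed as higher in DKO livers. It was Cyp2b10 (log2 difference 3.13 ± 0.29 (SE), edgeR adjusted p = 0.00122). With all livers its log2 difference was 2.98 ± 0.52 (SE), edgeR adjusted p = 0.182. Against WT Cyp2b10 had a log2 fold change of -2.25 in SKO livers (adjusted p = 0.00351) and 0.71 in DKO livers (adjusted p = 0.307). The median log2 difference was -0.36 over the PPARα list, -0.46 over the PPARγ list and -0.11 over the PGC-1α and ERRα list, and it was 0.10 over the LXR list, 0.27 over the PXR and CAR list and 0.24 over the HNF4α list, beside 0.01 over all genes. Over the other nuclear receptors, the coactivators and the corepressors it was 0.06, 0.04 and 0.01. With both livers left out, SKO 3 and DKO 4, the first 3 medians were -0.26, -0.16 and -0.08, and those of the LXR, the PXR and CAR and the HNF4α lists were -0.04, -0.03 and 0.01.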

How the data were processed

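RNA was extracted from 12 livers (TRIzol, then RNeasy columns) and libraries were made and sequenced by Novogene. Per the submitters' processing notes reads were aligned with HISAT2 (version not given) to the mouse genome (GRCm38 and mm10 are both named), while the counting program and annotation are not given in the sources used here. The authors deposited raw read counts per gene in one table and FPKM values, which they scaled by gene length and library size, in another. Tables of their own comparisons, which hold fold changes and p-values for each pair of groups, were not used. The coordinates of genes in the count table do not match GRCm38, so only chromosomes are given from it, and promoter coordinates are from RefSeq on GRCm38.p6.

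Counts were analysed in R 4.3.3 with edgeR 4.0.16. For each pair of genotypes the 8 livers were filtered with filterByExpr, scaled with TMM and tested with the quasi-likelihood F test, with Benjamini-Hochberg adjustment over all genes tested and a threshold of 0.05. CPM values used TMM factors over the 12 livers. The fits were tested on simulated data before use. FPKM served only to order genes and for shares of the 3 PPAR genes. DESeq2 1.42.0 (Wald test), RLE scaling, total counts only, no filter on low counts, a joint fit of all 12 livers, a replicate block, leaving out each liver and keeping only livers with Y-linked counts were alternatives. Figures were drawn with Python 3.11.15 and matplotlib 3.10.9.

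Depth was 14710304 to 20030055 counts per liver, so that 3 counts correspond to 0.150 to 0.204 CPM. No pair of livers of a genotype was alike within sampling noise (smallest chi-square per degree of freedom 20.6, over genes with at least 20 counts). The members and lists were chosen with earlier results of these data known. The text names the 10 members, for each list its 4 genes ranked first by p-value in SKO against WT, the markers, and for the members that passed in SKO against WT the 3 genes most like each. Values of a few genes that fall under this rule are not reported here.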

Additional observations from a re-analysis of the deposited data

Results flagged for a closer look

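Esrra in WT 2 was at 70.5 CPM, apart from the other 3 WT livers at 58.1 to 59.4 CPM, by Dixon's test at the 95% level. Of 30 groups of 4 livers tested (10 genes in 3 genotypes) 1 stood out, and chance flags about 1 in 20. WT 2 was not left out of any value in the report other than where each liver was left out in turn.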

How the results depend on the processing

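Each value was recomputed under 14 distinct alternatives in the comparisons with WT and 15 in DKO against SKO. Against WT, keeping only livers with Y-linked counts is the same as leaving out SKO 3 or DKO 4. Pparg kept its direction and its side of the threshold under all of them in SKO and DKO against WT, and Rxra did so in SKO against WT. With only the livers with Y-linked counts, 4 of the 10 genes were called in SKO against WT, beside 4711 of 14475 genes (32.5%). All genes called with those livers numbered 5253 in DKO against WT and 21 in DKO against SKO. With total counts only, 1 of the 10 was called in DKO against WT, with 1788 of all genes called higher and 469 lower. With the replicate block 1 of the 10 was called there, with 691 of all genes, and 0 of all genes in DKO against SKO. With DESeq2 2635 of all genes were called in DKO against WT and 97 in DKO against SKO, and with no filter 35 in the latter. Leaving out 1 liver in turn gave 2 to 4 of the 10 genes in SKO against WT, 1 to 2 in DKO against WT and 0 in DKO against SKO. Over all genes it gave 3617 to 4711, 244 to 5253 (without DKO 4) and 0 to 15.

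Changes of sign occurred only in comparisons that the gene did not pass. In SKO against WT Hnf4a was at 0.11 with total counts only and Nr1i3 at -0.14 without SKO 3. In DKO against WT Nr1i2 was at -0.0042 with DESeq2 and with RLE scaling, at -0.0097 with the replicate block and at -0.17 without DKO 4. There Hnf4a was at 0.029 with total counts only, and Ppargc1a was at -0.28 with the replicate block and at -0.42 without DKO 4. Leaving out 1 liver in turn moved Hnf4a from -0.15 to 0.034 (DKO against SKO) and from -0.14 to 0.0010 (SKO against WT), and Nr1h3 from -0.12 to 0.035 (DKO against SKO). It moved Nr1i2 from -0.17 to 0.13 (DKO against WT), Nr1i3 from -0.14 to 0.20 (SKO against WT) and Ppard from -0.18 to 0.12 (DKO against SKO). Ppargc1a moved from -0.42 to 0.42 (DKO against WT) and Rxra from -0.23 to 0.065 (DKO against SKO). The cause of these changes was not tested.

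Replicate numbers do not pair the livers, since the correlation of deviations of livers with the same number was -0.435 to 0.157. With the replicate block Ppargc1a passed as lower in SKO livers (log2 fold change -0.80, adjusted p = 0.0494) and Rxra no longer passed in DKO livers (-0.70, adjusted p = 0.0897). Each of the 10 genes had at least 98 counts in every liver.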
